A study of Homo sapiens with 18 samples.

Results

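The metallothioneins described here were MT1E, MT1F, MT1G, MT1M, MT1X and MT2A, chosen by gene symbol alone. They were 6 of the 55765 gene symbols counted in OVCAR3, an established human cell line of high-grade serous ovarian carcinoma. The cells were adherent cultures in RPMI medium with low serum. There were 6 groups of 3 libraries, 18 RNA libraries in all. The first series had 3 groups: cells given natural human IgA, cells given natural human IgG, neither raised against a known antigen, and untreated cells. The second series also had 3 groups: cells given an IgA that recognises BDNF, a neurotrophin, cells given an IgA that recognises TSPAN7, a tetraspanin of the cell surface, and untreated cells. Every antibody was used at 0.5 µg/ml. The labels give an incubation of 24 h for both series. A shorter incubation is stated elsewhere in the study. The question was how tumour cells respond at the level of transcription to IgA. The study reports that OVCAR3 cells took up IgA selectively, and it uses IgG as a control. The labels do not say that the replicates were separate cultures, so p-values measure only the spread between these libraries. No test was made across the series, and values of both are only set side by side.

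Metallothioneins are small proteins, rich in cysteine, that bind zinc and copper and can also sequester cadmium. In human cells they are encoded by a gene cluster on chromosome 16 in which MT2A is usually the most abundant transcript and the MT1 genes are near-copies of each other. The transcription factor MTF1 senses free zinc and activates them through metal response elements in their promoters, and glucocorticoids, inflammatory cytokines and oxidative stress are known inducers as well.

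In the GENCODE annotation of GRCh37, the 6 genes lay within 75.6 kb of chromosome 16 (56642496 to 56718108), a span that held 14 metallothionein genes and pseudogenes. In order along the chromosome, MT2A (56642496 to 56643409) was followed by MT1E (56659387 to 56661024), MT1M (56666571 to 56667893), MT1F (56691643 to 56694610), MT1G (56700642 to 56701977) and MT1X (56716382 to 56718108). MT1G was on the minus strand, and the other 5 were on the plus strand. Each principal transcript had 3 exons and a coding sequence of 183 bases for 61 amino acids, of which 20 (32.8%) were cysteine codons. Over the 15 pairs of members, the coding sequences were identical at 88.5% to 95.1% of bases. The first 75 coding bases of MT2A and MT1X, the 2 members called with IgA, are shown to display how far an exonic read of one could resemble the other. Capitals mark the 10 bases at which they differ.
MT2A: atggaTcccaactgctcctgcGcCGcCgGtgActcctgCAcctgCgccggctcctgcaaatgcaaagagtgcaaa
MT1X: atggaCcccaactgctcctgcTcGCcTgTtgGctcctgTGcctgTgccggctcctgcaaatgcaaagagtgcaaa
Read sharing was measured by taking every stretch of 75 bases, the read length, from each principal transcript and looking for exact copies elsewhere in the genome or in transcripts of other genes. All 327 stretches of MT2A and all 351 of MT1F were unique in this sense. Copies with mismatches, which an aligner can accept, were not sought. For MT1E 625 of 630 were unique (99.2%), for MT1M 320 of 324 (98.8%) and for MT1G 310 of 332 (93.4%). MT1X was the exception, with 211 of 330 (63.9%). Of its stretches, 92 occurred in transcripts of an overlapping gene (ENSG00000259827), 22 in MT1G and 13 in the pseudogene MT1XP1. The MT1X level is therefore uncertain where the authors' counting split or discarded such reads.

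Promoter sequence was held for MT2A and MT1X in the RefSeq promoter table (GRCh38.p14), and each was found once in GRCh37 by exact match. The 150 bases before each start are shown because these 2 genes changed with IgA. Capitals mark matches on either strand to the core of the metal response element, searched as TGCACNC and TGCGCNC.
MT2A promoter, chr16:56642346-56642495, plus strand: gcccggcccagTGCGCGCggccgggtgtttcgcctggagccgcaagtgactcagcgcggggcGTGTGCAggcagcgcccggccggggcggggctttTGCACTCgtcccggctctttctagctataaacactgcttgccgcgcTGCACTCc
MT1X promoter, chr16:56716232-56716381, plus strand: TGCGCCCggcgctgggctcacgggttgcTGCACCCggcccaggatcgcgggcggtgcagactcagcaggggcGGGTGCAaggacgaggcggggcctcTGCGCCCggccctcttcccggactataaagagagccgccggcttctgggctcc
Each stretch held 4 matches, none overlapping another. In the whole window of 300 bases (250 before the start and 50 after), MT2A held 8 and MT1X 4. Of 35116 RefSeq promoters of that length, 29.6% held at least 1 match to either form, 0.601% held at least 4, and 0.0199% (7 promoters) held at least 8. A match of letters is a description of the sequence and no measure of factor binding.

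The 9 libraries of the first series held 27920733 to 42371474 counts each, and those of the second held 39254350 to 47381836. In IgA replicate 3 the mitochondrial genome supplied 19.1% of the counts, against 5.75% to 8.32% in the other 8 libraries of that series, so results for the members, and list counts that changed, are also given without it. All 12 listed markers of OVCAR3 carcinoma (PAX8, WT1, MUC16, keratins and others) passed the filter on low counts, and they summed to between 4732 and 7427 CPM (edgeR's scale of counts relative to the TMM-adjusted library size) in every library. Leukocyte markers summed to at most 2.51 CPM and endothelial markers to at most 1.96 CPM. Fibroblast markers summed to 68.0 to 138.8 CPM with IgA and to 59.0 to 70.0 CPM in the IgG and untreated libraries of that series, nearly all of it from COL1A1 and COL1A2. COL3A1 had at most 7 counts and DCN at most 16 in any library. Of 4 fibroblast markers tested, 2 (COL1A1 and COL1A2) were called higher with IgA than with IgG, and 0 of 4 without IgA replicate 3. The endothelial marker CDH5, with at most 40 counts in any library, was called higher with IgA than in untreated cells. Of the 12 carcinoma markers, 2 were called higher and 4 lower with IgA against IgG and also against untreated cells, and without IgA replicate 3 it was 1 higher and 4 lower in each. With scaling by size alone it was 0 higher and 6 lower in each. Of all genes tested, with TMM scaling, 12.6% were called higher and 11.6% lower with IgA against IgG. Against untreated cells these shares were 12.9% and 12.1%. BDNF IgA gave 5 of the 12 carcinoma markers higher and 0 lower against untreated cells, beside 4.49% and 3.18% of all genes. TSPAN7 IgA gave 1 higher and 3 lower, beside 4.46% and 4.08% of all genes. With TSPAN7 IgA against BDNF IgA, 1 was higher and 6 lower (9 lower with DESeq2), beside 3.42% and 4.5% of all genes. Of 3 leukocyte markers tested, PTPRC (at most 24 counts in any TSPAN7 IgA library) was called higher with TSPAN7 IgA than in untreated cells, by a log2 fold change of 1.39 (edgeR adjusted p = 0.0487). Without IgA replicate 3, 1 of 4 leukocyte markers tested was called higher with IgA against IgG. The part of these markers in the metallothionein results was not tested. In bulk RNA, a different share of cells and a different amount of RNA per cell cannot be told apart.

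MT2A dominated, MT1X and MT1F were low, and MT1E, MT1G and MT1M had no counts. The last 3 had 0 counts in all 18 libraries. Whether the authors' annotation and counting assigned reads to these genes could not be checked from the counts. If it did, a count of 0 allows a true level of up to 3 counts, which was 0.0639 to 0.134 CPM depending on the library, a limit for counting error only. The counts of MT2A were 297 to 2597 times that limit. Zero was not rare in these tables: 18232 symbols (32.7%) had 0 counts in every library, and so did 1518 of 18028 protein-coding symbols (8.42%) matched to the annotation. No fold change was computed for these 3 members, and they were not tested.

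Levels of different genes were compared as CPM per kilobase of principal transcript. In untreated cells of the first series, MT2A stood at 96.3 ± 30.8 (SD, n = 3), MT1F at 10.8 ± 1.20 and MT1X at 9.25 ± 0.558. In untreated cells of the second series, the same genes stood at 149 ± 5.57, 13.8 ± 1.32 and 8.33 ± 0.719 CPM per kilobase. MT2A was thus 10.4 times MT1X in the first series and 17.8 times in the second, and no MT2A library came down to the level of any MT1F or MT1X library. MT1F and MT1X were close neighbours, with MT1F from 9.52 to 11.9 and MT1X from 8.77 to 9.86 CPM per kilobase in untreated libraries of the first series, ranges that overlap. They did not overlap in the second series, with MT1F from 12.3 to 14.7 and MT1X from 7.51 to 8.86 in untreated libraries. With IgA the order of MT1F and MT1X turned, at 15.9 ± 5.86 for MT1F and 20.1 ± 3.03 for MT1X, although their libraries overlapped.

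The comparison of IgA with IgG sets 2 natural human antibody preparations of different class side by side. Their class, the antigens they recognise and their preparation differ together and cannot be told apart here. MT2A was the member that moved most, MT1X moved less, and MT1F did not pass the test. Counts are given as normalised read counts, in which each library is brought to the average TMM-adjusted size of its series. MT2A measured 8737, 6561 and 7367 normalised counts in the IgA libraries (replicates 1 to 3) and 2130, 1718 and 979 in the IgG libraries. Every IgA library was above every IgG library, by a wide margin. The means were 7555 ± 1100 and 1609 ± 583, a log2 fold change of 2.23 (SE 0.27, 95% confidence interval 1.65 to 2.81, 4.69-fold, edgeR adjusted p = 1.31e-04), and 0.677% of the 18012 genes tested rose more. MT1X measured 333.0, 248.8 and 274.9 with IgA and 159.6, 153.9 and 136.1 with IgG. These groups did not overlap either, and the log2 fold change was 0.93 (SE 0.18, interval 0.53 to 1.32, 1.90-fold, edgeR adjusted p = 0.00337).

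MT1F measured 328.5, 234.8 and 153.2 normalised counts in the IgA libraries and 180.1, 192.1 and 185.6 in the IgG libraries. IgA replicate 3, the library with the high mitochondrial share, was below all 3 IgG libraries and the other 2 were above them. The log2 fold change was 0.37 (SE 0.24, interval -0.15 to 0.89, edgeR adjusted p = 0.287). Without IgA replicate 3 it was 0.60 (edgeR adjusted p = 0.0341), so the result for MT1F turned on that library. Without the same library the log2 fold changes were 2.24 for MT2A and 0.95 for MT1X. In all, 2 of the 3 members tested were called higher at an adjusted p under 0.05, where 12.6% of all genes tested were called higher and 11.6% lower. All 3 IgA libraries were above all 3 IgG libraries in 19.7% of genes. Scaled by library size alone, without the TMM correction for composition, the median of all genes was -0.25 and calls in this comparison were 19.4% upward instead of 51.9%, while MT2A stood at 1.99 and MT1X at 0.69 with both still called.

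**Figure D1:**
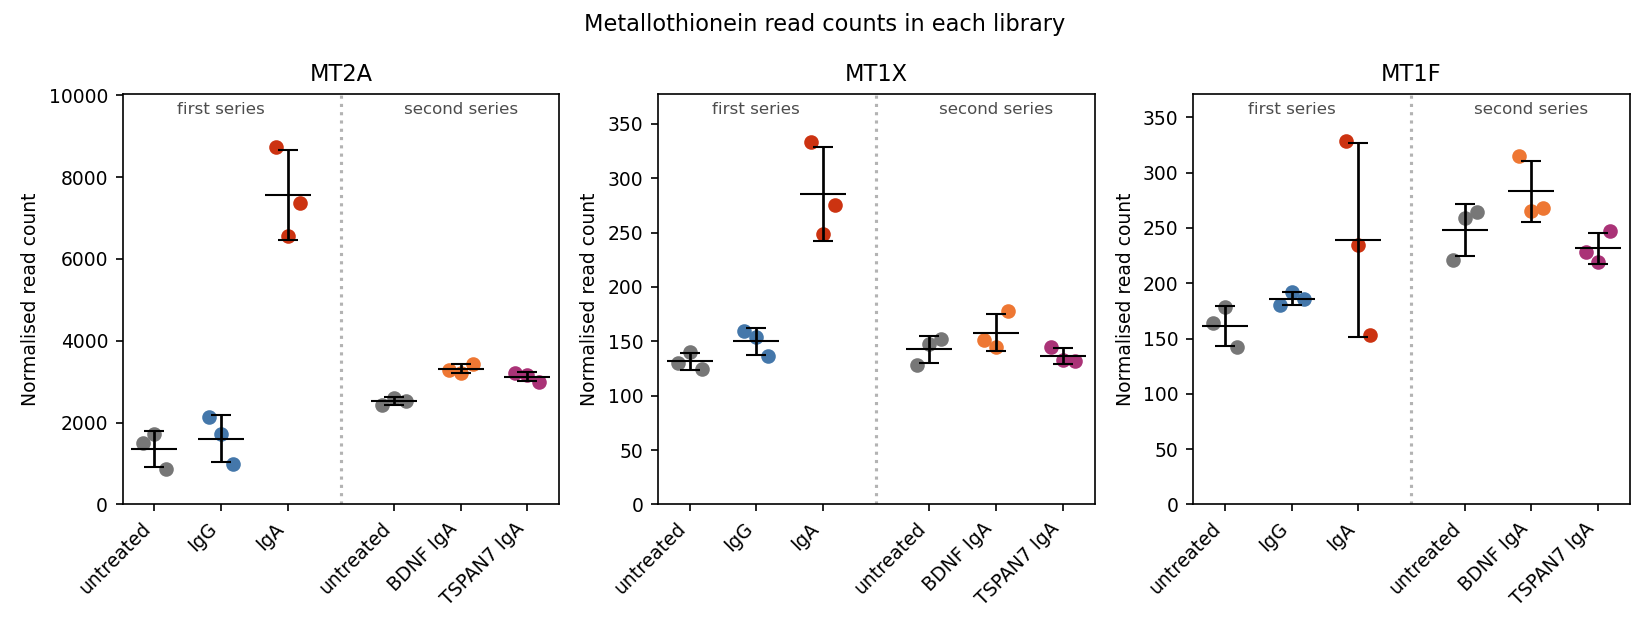
Normalised read counts of MT2A, MT1X and MT1F (vertical axes, each starting at 0) in the 18 libraries, 1 point per library, with the group mean and SD in black and the 2 series separated by a dotted line. The 3 IgA libraries of MT2A sit between 6561 and 8737, above all IgG and untreated libraries of the first series, while the 3 IgA libraries of MT1F spread from 153.2 to 328.5.

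Against untreated cells, IgA gave the same members. MT2A measured 1495, 1713 and 875 normalised counts in the untreated libraries (mean 1361 ± 435), below all 3 IgA libraries. The log2 fold change was 2.47 (SE 0.27, interval 1.89 to 3.06, 5.55-fold, edgeR adjusted p = 6.41e-05), and 0.527% of genes tested rose more. MT1X measured 129.8, 140.4 and 124.9 in untreated cells, again without overlap, for a log2 fold change of 1.12 (SE 0.18, interval 0.72 to 1.51, edgeR adjusted p = 0.00103). MT1F measured 164.0, 178.2 and 142.6 in untreated cells, overlapping the IgA libraries. Its log2 fold change was 0.57 (SE 0.24, edgeR adjusted p = 0.101), and 0.80 without IgA replicate 3 (edgeR adjusted p = 0.00767). Of the 3 members tested, 2 were called higher, against 12.9% of all genes called higher, 12.1% called lower and 19.8% with all 3 IgA libraries above all 3 untreated ones. The comparison shares its IgA libraries with the one above, so the results are not independent of each other.

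IgG and untreated cells were not told apart by these genes. None of the 3 members tested was called, in a comparison where 0% of the 18012 genes were called and 89 genes (0.494%) had an unadjusted p under 0.05 in edgeR. For MT2A the log2 fold change of IgG against untreated was 0.24 (SE 0.26, interval -0.32 to 0.81), and it came to -0.010 without IgG replicate 1, the highest IgG library. For MT1X it was 0.19 (interval -0.21 to 0.59) and for MT1F 0.20 (interval -0.32 to 0.72). All 3 IgG libraries of MT1F were above all 3 untreated libraries, as were 3.32% of genes, while the libraries of MT2A and MT1X overlapped. The intervals allow a change in either direction for each gene. They and the 0.494% come from the fit of all 9 libraries, so the spread of the IgA libraries entered them. They therefore do not describe IgG and untreated cells alone. Fitted without the IgA libraries, the SE was 0.156 for MT1F (0.241 with them), 0.166 for MT1X (0.185) and 0.260 for MT2A (0.261). No gene was called in that fit either. Its unadjusted p in edgeR was 0.221 for MT1F, 0.282 for MT1X and 0.368 for MT2A.

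**Figure D2:**
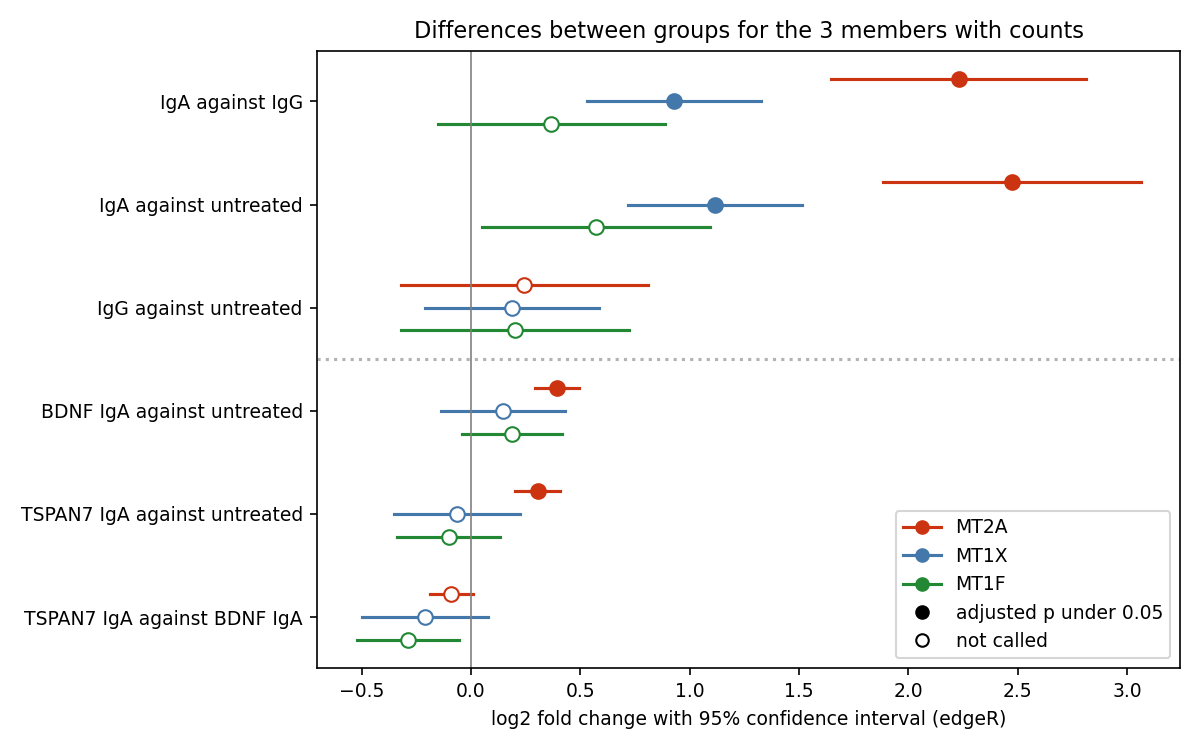
Log2 fold changes (points) with 95% confidence intervals (lines) from edgeR for MT2A, MT1X and MT1F in the 3 comparisons of the first series (top) and the 3 of the second (bottom). Filled points have an adjusted p under 0.05: MT2A and MT1X in both comparisons of IgA, and MT2A in BDNF IgA and TSPAN7 IgA against untreated.

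In the second series, MT2A was the member called against untreated cells. MT2A measured 3294, 3219 and 3440 normalised counts in the BDNF IgA libraries and 2424, 2612 and 2540 in the untreated libraries. Every BDNF IgA library was above every untreated library. The means were 3318 ± 112 and 2525 ± 94.7, a log2 fold change of 0.39 (SE 0.048, interval 0.29 to 0.49, 1.31-fold, edgeR adjusted p = 1.59e-05), and 7.27% of the 18732 genes tested rose more. MT1F measured 315.3, 265.7 and 268.0 with BDNF IgA and 220.8, 258.9 and 264.6 untreated, narrowly without overlap. Its log2 fold change was 0.19 (SE 0.11, interval -0.04 to 0.42, edgeR adjusted p = 0.343). MT1X measured 151.6, 144.8 and 177.7 with BDNF IgA and 128.7, 147.7 and 151.7 untreated, which overlap, with a log2 fold change of 0.15 (interval -0.14 to 0.43, edgeR adjusted p = 0.586). Thus 1 of the 3 members tested was called higher, where 4.49% of all genes were called higher and 3.18% lower, and 12.8% had all 3 BDNF IgA libraries above the untreated ones.

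With TSPAN7 IgA, MT2A measured 3202, 3160 and 2997 normalised counts, all above the untreated libraries. The mean of 3119 ± 108 gave a log2 fold change of 0.30 (SE 0.049, interval 0.20 to 0.41, 1.24-fold, edgeR adjusted p = 3.04e-04). MT1F measured 228.7, 219.2 and 246.8, and MT1X measured 144.8, 132.8 and 132.1. Both overlapped the untreated libraries, with log2 fold changes of -0.10 for MT1F (interval -0.34 to 0.13, edgeR adjusted p = 0.663) and -0.06 for MT1X (interval -0.35 to 0.23, edgeR adjusted p = 0.846). Here too 1 of the 3 members tested was called higher, against 4.46% of all genes called higher, 4.08% called lower and 14.4% with all 3 TSPAN7 IgA libraries above the untreated ones. This comparison uses the same untreated libraries as the one for BDNF IgA.

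Between the antigen-specific antibodies no member was called, while 3.42% of all genes were called higher with TSPAN7 IgA and 4.5% lower. All 3 members had every TSPAN7 IgA library below every BDNF IgA library, as did 12.1% of genes. For MT1X this held only narrowly, since TSPAN7 IgA replicate 1 and BDNF IgA replicate 2 both had 145 raw counts. The log2 fold change of TSPAN7 IgA against BDNF IgA was -0.09 for MT2A (interval -0.19 to 0.01, edgeR adjusted p = 0.288) and -0.21 for MT1X (interval -0.50 to 0.08, edgeR adjusted p = 0.398). For MT1F it was -0.29 (SE 0.11, interval -0.52 to -0.06, edgeR adjusted p = 0.124), and this interval, which is not adjusted over genes, leaves out 0.

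Summed over the 6 members, normalised counts came to 8080 ± 1202 with IgA, 1945 ± 593 with IgG and 1654 ± 460 in untreated cells of the first series. The sums of the second series were 3759 ± 128 with BDNF IgA, 3488 ± 102 with TSPAN7 IgA and 2916 ± 127 in untreated cells. With each IgA against untreated cells, MT2A rose more than MT1X and MT1F, so the make-up of the sum moved as well. With TSPAN7 IgA against BDNF IgA, the log2 fold change of MT2A (-0.09) was smaller than those of MT1X (-0.21) and MT1F (-0.29), none of them called. MT2A supplied 93.0% to 94.5% of the member counts in IgA libraries, 75.3% to 86.2% in IgG libraries and 76.6% to 84.3% in untreated libraries. The IgA libraries did not overlap the others, and the IgG and untreated libraries did. Shares of the second series were 87.6% to 88.7% with BDNF IgA, 88.8% to 90.0% with TSPAN7 IgA and 85.9% to 87.4% untreated, 3 ranges that do not overlap. Of the 6 comparisons of this share, 5 had the smallest p that an exact two-sided permutation test of 3 against 3 can give (0.1, or 0.12 adjusted over the 6), and that of IgG with untreated had p = 1, so the design could not reach 0.05. Per kilobase of transcript, MT2A was 26.7 times MT1X with IgA, 10.8 times with IgG, 21.2 times with BDNF IgA and 23.0 times with TSPAN7 IgA.

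**Figure D3:**
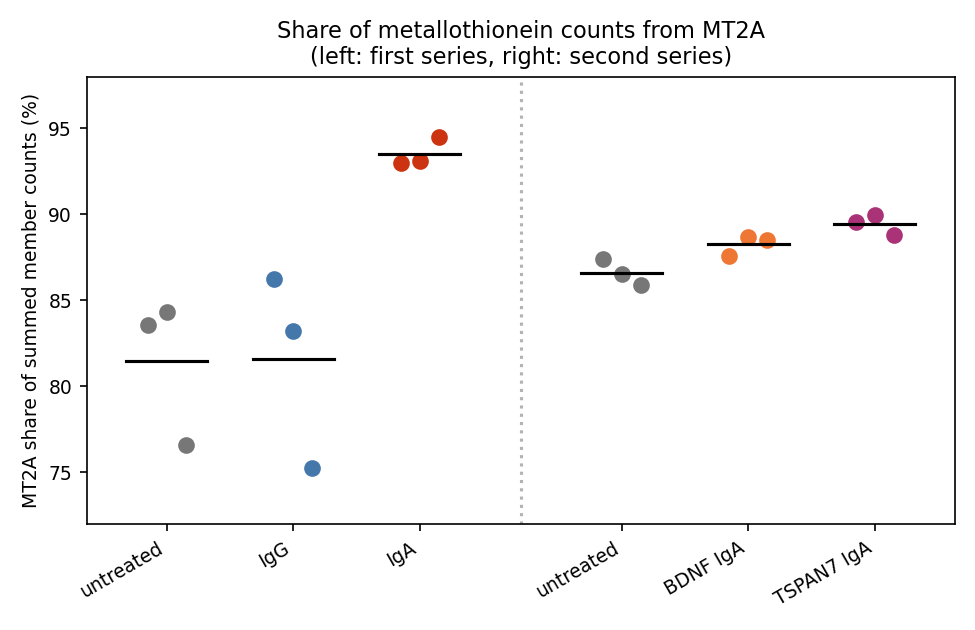
Share of the summed member counts that came from MT2A (vertical axis, in percent, which does not start at 0), 1 point per library, with the group mean as a black bar. The 3 IgA libraries lie between 93.0% and 94.5%, above every IgG and untreated library of the first series, which lie between 75.3% and 86.2%.

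The transcript of the zinc sensor MTF1 was not called in any comparison of the first series with TMM scaling. The activity of the MTF1 protein was not measured. MTF1, which activates metallothionein genes when zinc rises, measured 1024, 1249 and 997 normalised counts with IgA and 1447, 1200 and 1217 with IgG, which overlap. Its log2 fold change was -0.24 (interval -0.50 to 0.02, edgeR adjusted p = 0.169). With scaling by size alone MTF1 was called lower with IgA against IgG (-0.46, edgeR adjusted p = 0.0465), and was not called against untreated (-0.31, edgeR adjusted p = 0.179). SLC30A1, a zinc exporter of the cell surface and another known target of MTF1, had a log2 fold change of 0.21 with IgA against IgG (edgeR adjusted p = 0.156) and 0.20 against untreated (edgeR adjusted p = 0.164), which turned to -0.031 and -0.0095 with scaling by size alone. SLC30A1 did rise in the second series, by a log2 fold change of 0.19 with BDNF IgA (edgeR adjusted p = 0.0196) and of 0.22 with TSPAN7 IgA (edgeR adjusted p = 0.00713). All its libraries with either antibody were above the untreated ones, as for 12.8% of all genes with BDNF IgA and 14.4% with TSPAN7 IgA. MTF1 was not called there either (0.05 and 0.06, edgeR adjusted p = 0.591 and 0.551).

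With IgA against IgG, 12.6% of all genes tested were called higher and 11.6% lower. Of 7 zinc exporter genes (SLC30A family) tested, 0 were called in that comparison. Their median log2 fold change was -0.16, beside -0.01 for all genes. That median was 0.02 without IgA replicate 3 and -0.37 with scaling by size alone, which called 3 of the 7 lower (SLC30A6, SLC30A7 and SLC30A9), while DESeq2 called 1 lower (SLC30A6). Of 11 zinc importer genes (SLC39A family), 5 were called higher and 0 lower, with a median of 0.38. SLC39A4, which takes up dietary zinc in the intestine, was 0.56 higher, SLC39A13 0.52, SLC39A14, which takes up zinc and iron in inflammation, 0.45, SLC39A6 0.38 and SLC39A10 0.38, all on the log2 scale. None of the 11 was called when libraries were scaled by size alone. Of 14 copper handling genes, 3 were called higher with IgA against IgG, where 12.6% of all genes were. They were the copper chaperone COX17 (0.48), the superoxide dismutase SOD1 (0.40) and the copper importer SLC31A1 (0.30). Without IgA replicate 3 the copper genes gave 4 higher and 0 lower in this comparison, and with DESeq2 4 higher and 1 lower. With scaling by size alone, 0 were called higher and 3 lower, so the direction of this list depended on the scaling. Against untreated cells, where 12.9% of all genes were called higher and 12.1% lower, IgA gave 0 of 7 exporters (2 lower with scaling by size alone). It gave 5 of 11 importers higher (3 without IgA replicate 3 and 0 with scaling by size alone). Among copper genes it gave 1 higher (STEAP3, 0.66) and 1 lower (STEAP4, -0.86). Without IgA replicate 3 the copper genes gave 3 higher and 0 lower, with scaling by size alone 0 higher and 1 lower, and with DESeq2 3 higher and 1 lower. With BDNF IgA, SLC39A11 (0.34) was higher and SLC39A7 (-0.17) lower among importers, and the metalloreductase STEAP2 (0.34) was higher among copper genes. With TSPAN7 IgA, SLC39A4 (0.23), SLC39A14 (0.19) and STEAP4 (0.55) were higher.

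Among genes of other known inducers, the cytokines moved most. With IgA against IgG, 12.6% of all genes tested were called higher. Of 9 such inducer genes, 8 were called higher and the ninth was the heat shock factor HSF1 (0.01, edgeR adjusted p = 0.955). IL6 rose by a log2 fold change of 4.53, TNF by 5.09, IL1A by 5.12 and LIF by 2.34, with smaller rises for NFE2L2 (0.68), STAT3 (0.52) and the receptor subunit IL6ST (0.43). IL1B had 0 or 1 count in each IgG library, so its fold depends on that floor. The list's median was 2.34, and 6 of 9 were called higher with scaling by size alone. The list of glucocorticoid-induced genes also held NR3C1, the gene of the glucocorticoid receptor, which is not there as an induced gene. Of its 10 genes tested, 7 were called higher, NR3C1 among them, with a median of 0.89. TSC22D3, the glucocorticoid-induced leucine zipper, rose by 2.59, the clock gene PER1 by 2.57, CEBPD by 1.71, ERRFI1 by 1.40, SGK1 by 0.75 and KLF9 by 0.68, and NR3C1, the receptor itself, by 0.52. FKBP5, a classic target of that receptor, was not called (0.31, edgeR adjusted p = 0.0817). With scaling by size alone, 4 of the 10 were called higher, and without IgA replicate 3 it was 8.

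Of 11 cadmium and redox response genes, 6 were called higher with IgA against IgG, where 12.6% of all genes were. With scaling by size alone it was 4 of these 11. HSPA1B rose by 2.24, HSPA1A by 1.75, HMOX1, the inducible heme oxygenase, by 1.49, DNAJB1 by 0.98 and NQO1 by 0.72. The sixth was the zinc importer SLC39A10, which is on both lists and was already counted among the importers above. HSPA1A and HSPA1B are near-identical copies, so the split of their reads is uncertain. Against untreated cells, 12.9% of all genes were called higher with IgA. The IgA counts there were 8 of 9 inducers, 6 of 10 glucocorticoid-induced genes and 6 of 11 cadmium and redox genes, all higher. Without IgA replicate 3 these counts were 8, 8 and 5, and with scaling by size alone they were 7, 5 and 4. With IgG against untreated cells none of these genes was called, as for all genes.

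In the second series, 4 of 9 inducers were called higher with BDNF IgA (3 with DESeq2), where 4.49% of all genes were. They were IL1B (1.84), IL1A (1.39), TNF (0.87) and LIF (0.24). With TSPAN7 IgA, 5 of 9 were called higher (4 with DESeq2), where 4.46% of all genes were. These were IL1B (2.07), IL1A (1.48), IL6 (1.35), TNF (1.09) and LIF (0.43). IL1B had only 3 to 5 counts across the untreated libraries of this series, so its folds depend on that floor. Among glucocorticoid-induced genes, BDNF IgA gave KLF9 higher (0.57) and CEBPD lower (-0.22). TSPAN7 IgA gave ERRFI1 higher (0.33) and ANGPTL4 (-0.97) and GLUL (-0.23) lower. Of the cadmium and redox genes, HSPA1A was lower with BDNF IgA (-0.26), and HSPA1B (0.30) and GCLM (0.26) were higher with TSPAN7 IgA. With TSPAN7 IgA against BDNF IgA, 3.42% of all genes were called higher and 4.5% lower. No exporter and no MTF1 call was made there. Higher were 2 importers, 4 cadmium and redox genes (1 with scaling by size alone) and 1 inducer (IL6, 0.94). Copper genes gave 1 higher and 1 lower, and glucocorticoid-induced genes 2 higher and 1 lower.

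**Figure D4:**
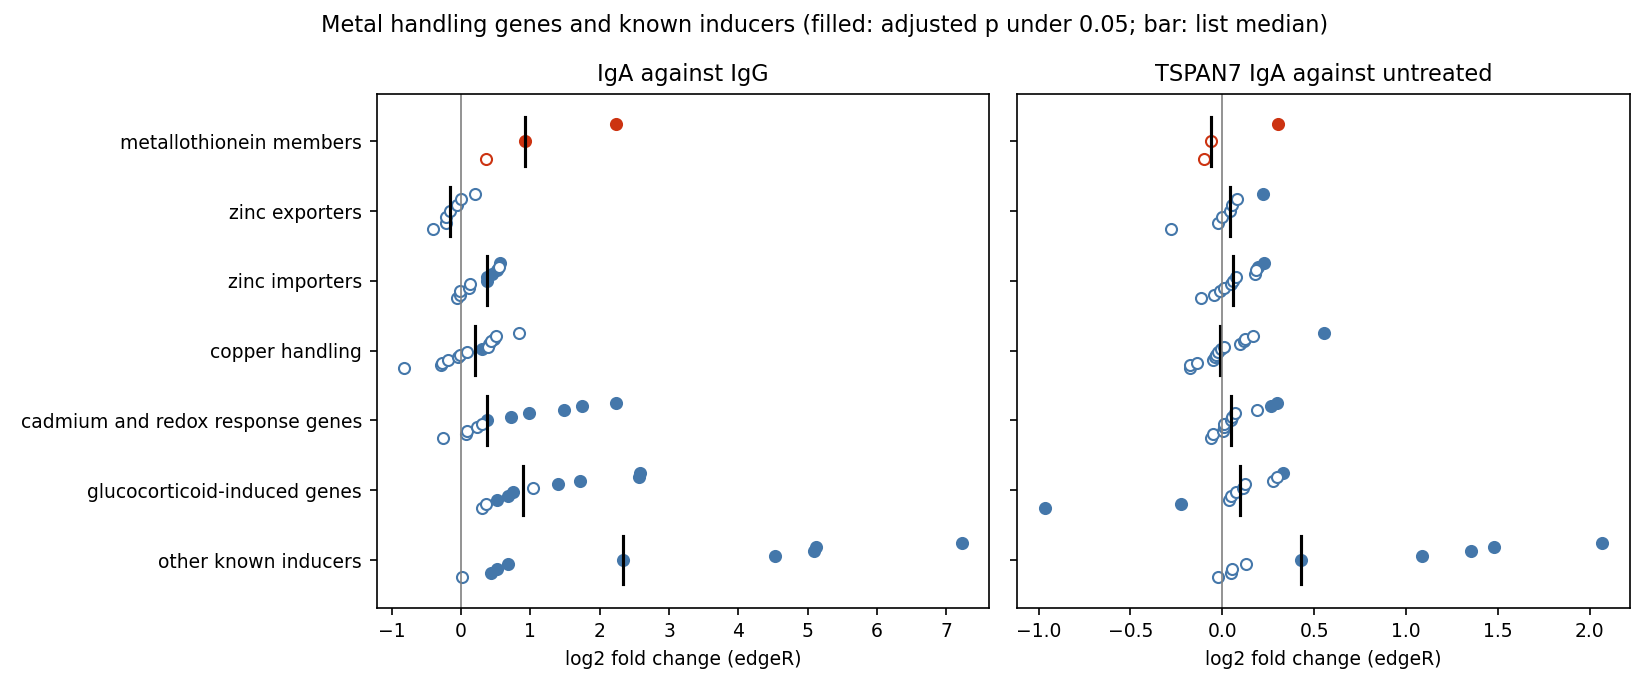
Log2 fold changes (horizontal axes) of the metallothionein members with counts (red) and of the genes of 6 lists (blue), for IgA against IgG (left) and TSPAN7 IgA against untreated (right, on its own scale). Filled points have an edgeR adjusted p under 0.05 and black bars are list medians, which for IgA against IgG run from -0.16 in zinc exporters to 2.34 in other known inducers.

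Other metallothionein genes and pseudogenes were at or near 0. Of 14 such rows, 8 had 0 counts in every library, among them MT1A, MT1H and MT4, and 3 (MT1B, MT1DP and MT3, the brain form) never had more than 3 counts. MT1P1 reached 7 counts and MT1XP1 reached 9. MT2P1, a pseudogene of MT2A, had 10, 6 and 6 counts in the IgA libraries, 2, 1 and 0 in the IgG libraries and 0 in each untreated library of the first series, where it did not pass the filter and was not tested. It had in the second series 11, 2 and 7 counts with BDNF IgA, 13, 4 and 10 with TSPAN7 IgA and 2, 4 and 6 untreated. Those groups overlapped and neither antibody was called (edgeR adjusted p = 0.570 and 0.260). Whether reads of MT2A were counted as MT2P1 was not tested.

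Likeness of pattern was measured as the root mean square difference over the 18 libraries in log2 CPM, centred within each series. The genes nearest to the mean of the 3 members with counts were DNAJB9, a chaperone partner of the endoplasmic reticulum (0.139), ACTG1, a cytoplasmic actin (0.143), FBXO36 (0.151), CDKN2B, an inhibitor of cyclin-dependent kinases (0.154), and PLEK2 (0.154). The members were not each other's nearest genes. Among 13346 genes, MT1X ranked 306 in nearness to MT2A (0.526), and the nearest to MT2A was IER3 (0.169), an immediate early response gene. MT1F ranked 1865 in nearness to MT1X (0.275), and the nearest to MT1X was FAM214B (0.122). MT1X ranked 3938 in nearness to MT1F, whose nearest gene was SPRY1 (0.132). The measure depends on the size of the response as well as its shape, and members with few counts carry more counting noise.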

How the data were processed

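RNA of OVCAR3 cells was sequenced on a NextSeq 550 as paired reads of 75 bases, from libraries made with the Ovation Human FFPE RNA-Seq kit. By their methods, the authors used cutadapt for trimming, STAR for alignment to GRCh37 and featureCounts for assigning unique alignments to genes. The submitters' processing notes name cutadapt 1.8.1, HTSeq 0.6.1, bcl2fastq 2.20.0.422 and the build hg19. The values the authors deposited are raw counts per gene symbol, not normalised. Whether reads were counted by strand is not given in the sources used here, and overlapping genes and near-copies may have shared or lost reads. Of 57820 rows in the second table, 2055 were exact duplicates and were removed.

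The sample titles gave each library its group and replicate number. Each series was fitted on its own, all 9 libraries together, by the two-sided quasi-likelihood F test of edgeR 4.0.16 (R 4.3.3), after filterByExpr and TMM scaling. P-values were adjusted by Benjamini-Hochberg over all genes tested in a comparison and called under 0.05. No pair of replicates was as close as counting error alone would make it (chi-square divided by its degrees of freedom, 4.16 to 259). Intervals cover the spread between libraries, and PCR copies could not be told from separate molecules, since no molecular identifiers are described. Alternatives were DESeq2 1.42.0, other scalings and filters, omission of mitochondrial and ribosomal RNA genes, pairwise fits, a threshold of 0.01, a replicate block and omission of each library. The recount of the gene lists under other scalings and without IgA replicate 3 was chosen after seeing the data. Scripts were tested on simulated data. Loci and transcripts come from GENCODE v44lift37, which may differ from the authors' annotation. The members were named whatever their values, and up to 6 called genes of each list. STAT3, IL6ST, HSF1, NR3C1, FKBP5, SLC30A6, SLC30A7, SLC30A9 and PTPRC fall outside that rule and were named after their values were seen. Members and lists were chosen with earlier results of these data known.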

Additional observations from a re-analysis of the deposited data

How the results depend on the processing

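The 18 log2 fold changes (3 members in 6 comparisons) were recomputed under 18 alternatives each, 324 values in all, of which 321 kept their direction and their side of the threshold. The exceptions were MT1F with IgA, called without IgA replicate 3 against IgG (0.60, edgeR adjusted p = 0.0341) and against untreated (0.80, edgeR adjusted p = 0.00767), and MT2A with IgG against untreated, which turned to -0.010 without IgG replicate 1 (range -0.010 to 0.50 with 1 library left out). MT1F with IgA against IgG ranged from 0.07 to 0.60. For calls of MT2A and MT1X the ranges over alternatives were 1.97 to 2.48 (highest adjusted p = 0.00127) and 0.69 to 1.02 (highest adjusted p = 0.0223) for IgA against IgG, and 2.24 to 2.67 and 0.91 to 1.20 for IgA against untreated. For MT2A they were 0.36 to 0.42 for BDNF IgA and 0.28 to 0.33 for TSPAN7 IgA. The number of members called moved only from 2 to 3, without IgA replicate 3, in each of the 2 comparisons of IgA. Scaling by library size alone shifted the median of all genes by -0.25 (IgA against IgG) and -0.22 (IgA against untreated) and put 19.4% and 23.3% of calls upward, against 51.9% and 51.4% with TMM. It put, in the second series, 67.3% of calls upward for BDNF IgA against untreated (58.5% with TMM) and 33.9% for TSPAN7 IgA against BDNF IgA (43.2% with TMM). MT2A and MT1X remained called in both comparisons of IgA under it.

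Whether replicate numbers paired the libraries could not be settled, since only same-numbered libraries were compared. Deviations of same-numbered libraries from their group means correlated between -0.07 and 0.25 in the first series (over 0.1 in 1 of 9 pairs) and between -0.02 and 0.09 in the second (0 of 9). The pair at 0.25 was replicate 3 of IgG and of untreated cells. With the replicate block, MT2A stood at 2.31 and MT1X at 0.93 for IgA against IgG, MT2A at 0.39 for BDNF IgA, and the number of members called was the same in each comparison. Low counts limit MT1X and MT1F more than MT2A, and levels of MT1E, MT1G and MT1M below 3 counts were not detectable at this depth, provided that the authors' counting assigned reads to these genes, which could not be checked.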

Other observations

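The MT2A libraries of the first series differed within groups as well as between them. The lowest normalised count of MT2A was in replicate 3 in both the IgG group (979) and the untreated group (875), and the highest IgG library, replicate 1, was at 2130. In the second series the lowest and highest MT2A libraries within a group differed little, at 3219 and 3440 with BDNF IgA. Replicate 3 of IgA, the library with the high mitochondrial share, had the lowest share of MT1F in the summed member counts, 1.97% against 3.33% and 3.50% in the other IgA libraries, while its share of MT1X (3.53%) was like theirs (3.53% and 3.54%).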
